A study of Mus musculus with 96 samples.

Results

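The interferon-induced genes Rsad2, Isg15, Isg20, Irf7, Ifitm3, Usp18, Oasl2 and Ube2l6 were followed cell by cell in single erythroid precursors of mouse marrow. They were chosen by name, with earlier results of these data known, and all 8 were among the 24321 gene symbols of the deposited expression table. RNA had been sequenced from 96 cells, each a sample of its own, taken from marrow of C57BL/6 mice of genotype Rpl11 +/lox, in which 1 copy of a gene for a large-subunit ribosomal protein carries a lox allele. The series describes the cells as running from burst-forming units-erythroid, the early red cell progenitors, to basophilic erythroblasts. All 96 cells share that genotype and the label erythroid precursor; the Cre, any inducing agent, the state of the lox allele and the age of the mice are not stated in the sources used. Neither wild-type cells nor separate animals are named in the labels. All cells were therefore treated as a single sample, and every comparison below is a difference in size with no test.

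Interferons are secreted proteins that cells release when they sense foreign nucleic acids. Type I and type III interferons act through JAK kinases on a complex of transcription factors that includes IRF9, which binds a DNA motif called the interferon-stimulated response element and switches on many antiviral genes together. In such a response a cell is usually found with many of these transcripts at once, whereas some of the same genes are also transcribed without interferon as cells mature, so co-detection within a cell matters more than the level of any single gene. ISG15 and its conjugating enzymes have also been described in red cell development.

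The files hold no promoter sequence, so the windows below come from RefSeq on GRCm38.p6, each from 250 bases before to 50 bases after an annotated start, and 7 of the 8 genes had an entry. They are shown because the genes differ in the response element core GAAANNGAAA, searched on both strands (reverse complement TTTCNNTTTC), which is in capitals. The printed stretches are the 150 bases before the start of Isg15 (chr4:156200819-156200968, minus strand), Rsad2 (chr12:26456453-26456602, minus strand) and Ube2l6 (chr2:84798678-84798827, plus strand), and the first 30 bases of the transcript of Ifitm3 (chr7:141010715-141010744, minus strand), each read 5′ to 3′ on the gene's own strand.
Isg15: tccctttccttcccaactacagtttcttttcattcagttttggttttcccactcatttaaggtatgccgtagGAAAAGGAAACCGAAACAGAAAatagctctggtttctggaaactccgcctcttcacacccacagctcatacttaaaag
Rsad2: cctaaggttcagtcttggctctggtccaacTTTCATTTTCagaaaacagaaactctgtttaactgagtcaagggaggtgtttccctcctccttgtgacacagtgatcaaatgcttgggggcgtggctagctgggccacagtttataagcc
Ube2l6: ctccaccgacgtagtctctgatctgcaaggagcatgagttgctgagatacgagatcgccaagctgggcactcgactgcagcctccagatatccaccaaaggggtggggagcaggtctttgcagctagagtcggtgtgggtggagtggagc
Ifitm3: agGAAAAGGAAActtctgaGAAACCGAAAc

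The core was found in 3.44% of 32851 promoter windows of this length. Isg15 held 3 copies, each overlapping the next, from base -78 to the last copy beginning at base -66, and 5 of the 32851 windows (0.0152%) held 3 or more. Rsad2 held 1 copy, beginning at base -120 and read on the opposite strand. Ifitm3 held 2 copies just after its start, beginning at transcript bases 3 and 20. No copy was found in the windows of Ube2l6, Irf7 and Oasl2 or in any of the 3 annotated starts of Isg20. A gamma-activated site core, TTCNNNGAA, present in 8.30% of windows, was found at 1 start of Isg20 and in Ifitm3, where it overlaps the second copy of the other core. AGATAA, a motif bound by GATA factors, present in 11.2% of windows on either strand, was found at 1 start of Isg20 and in Irf7 and Oasl2. These are matches of letters in a short window and say nothing of binding.

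A cell entered the erythroid set when at least 1000 genes were at 1 RPKM (reads scaled to transcript length in kilobases and to 1000000 mapped reads) or more and when no list of markers of another lineage was met. Of 96 cells, 58 did so (60.4%) and are called kept cells, 11 (11.5%) met a marker list of another lineage, mostly monocyte or macrophage (6 cells), and 27 (28.1%) listed fewer genes. Kept cells had a median of 15 of 17 erythroblast markers at 10 RPKM or more (range 4 to 17), against a median of 5 (4 to 6) in cells of other lineages, where the 4 globin genes alone were detected in all 11 cells. Of early progenitor genes, Kit was detected in 1, Gata2 in 2, Cd34 in 4 and Myb in 11 kept cells. Kept cells listed a median of 1955.5 genes (1003 to 6013), and estimated depth, in units of 1000 reads, was 6904 at the median (1530 to 11654), against 4036 genes and a depth of 4052 in cells of other lineages (10 of 11 with an estimate). In 4 kept cells, numbers 3, 11, 68 and 77, Hba-a1 (alpha-globin) was under 1000 RPKM, and these held 4 or 5 erythroblast markers beside 2 to 6 of 13 neutrophil and 1 to 4 monocyte or macrophage markers. They were kept by the rule, and results that they change are also given without them.

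The 8 genes fell into 3 levels of detection, a gene being detected at 1 RPKM or more. Ube2l6, Isg20, Ifitm3 and Rsad2 were each found in at least 50% of kept cells, as were 6.3% of all 24321 genes, and 45.1% of all genes were found in at least 1 kept cell. Isg15 and Irf7 were found in 17 cells each, and Usp18 and Oasl2 were rare. Because the genes were chosen with detection known, these counts describe them and set nothing apart.

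Ube2l6, the conjugating enzyme that passes ISG15 to its targets, was detected in 56 of 58 kept cells (96.6%, exact 95% interval 88.1% to 99.6%), with a median of 342 RPKM among them and a highest value of 1466 RPKM. Isg20, an exonuclease that degrades RNA, was detected in 55 cells (94.8%, 85.6% to 98.9%), with a median of 490 RPKM and a highest value of 1212 RPKM. Both were thus abundant in nearly every erythroid cell and not at a low level. Of the 3 kept cells without Isg20 and the 2 without Ube2l6, the cells poor in alpha-globin made up 2 and 2.

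Ifitm3, a membrane protein that restricts virus entry, was detected in 36 cells (62.1%, 48.4% to 74.5%). Its values were split, since 22 cells were below 1 RPKM, no cell lay between 1 and 10 RPKM, and the 36 ran from 75.6 to 3795 RPKM with a median of 296 RPKM. Its neighbour Ifitm2 was detected in the same 36 cells, at a level that Ifitm3 exceeded 4.74 times at the median; the 2 genes belong to a family of similar sequences, and reads shared between them were not told apart. Rsad2, which encodes viperin, an enzyme that makes a chain terminator of viral RNA synthesis, was detected in 29 cells (50.0%, 36.6% to 63.4%). It ran from 1.35 to 348 RPKM with a median of 44.4 RPKM, and 8 of the 29 cells lay under 10 RPKM, the most of any of the 8 genes.

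Isg15, a ubiquitin-like protein joined to other proteins in infected cells, was detected in 17 cells (29.3%, 18.1% to 42.7%), with a median of 80.4 RPKM and a highest value of 719 RPKM. Irf7, a transcription factor that amplifies interferon production, was also detected in 17 cells, with a median of 83.1 RPKM and values from 18.8 to 406 RPKM. Its exons overlap Phrf1 on the opposite strand, and the strand of the libraries is not stated in the sources used; Phrf1 was detected in 9 kept cells, none of them among the 17 with Irf7. Usp18, a protease that removes ISG15 and dampens the interferon receptor, was detected in 8 cells (13.8%, 6.15% to 25.4%) at 35.6 to 179 RPKM. Oasl2, an oligoadenylate synthetase-like protein, was detected in 2 cells (3.45%, 0.420% to 11.9%), at 32.0 RPKM in cell 21 and 10.7 RPKM in cell 31.

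Detected values stood well above the floor of counting. The median number of estimated reads behind a detected value ran from 431 for Isg15 to 3554 for Ube2l6, and 3 reads correspond to a median of 0.115 RPKM for Rsad2 and 0.641 RPKM for Ifitm3. Among cells where a gene was listed at 0, the shallowest would have shown 3 reads as 0.519 RPKM for Rsad2, 2.59 RPKM for Isg15 and 2.89 RPKM for Ifitm3. A zero therefore bounds the reads of a library, and transcripts lost before amplification leave no read, so it does not show that a cell lacked the transcript. Floors cover the counting of reads alone, because the reads were amplified without molecular identifiers and several can stem from 1 molecule. Intervals are taken over numbers of cells as if each cell were independent, and cover neither lost transcripts nor differences between animals.

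**Figure D1:**
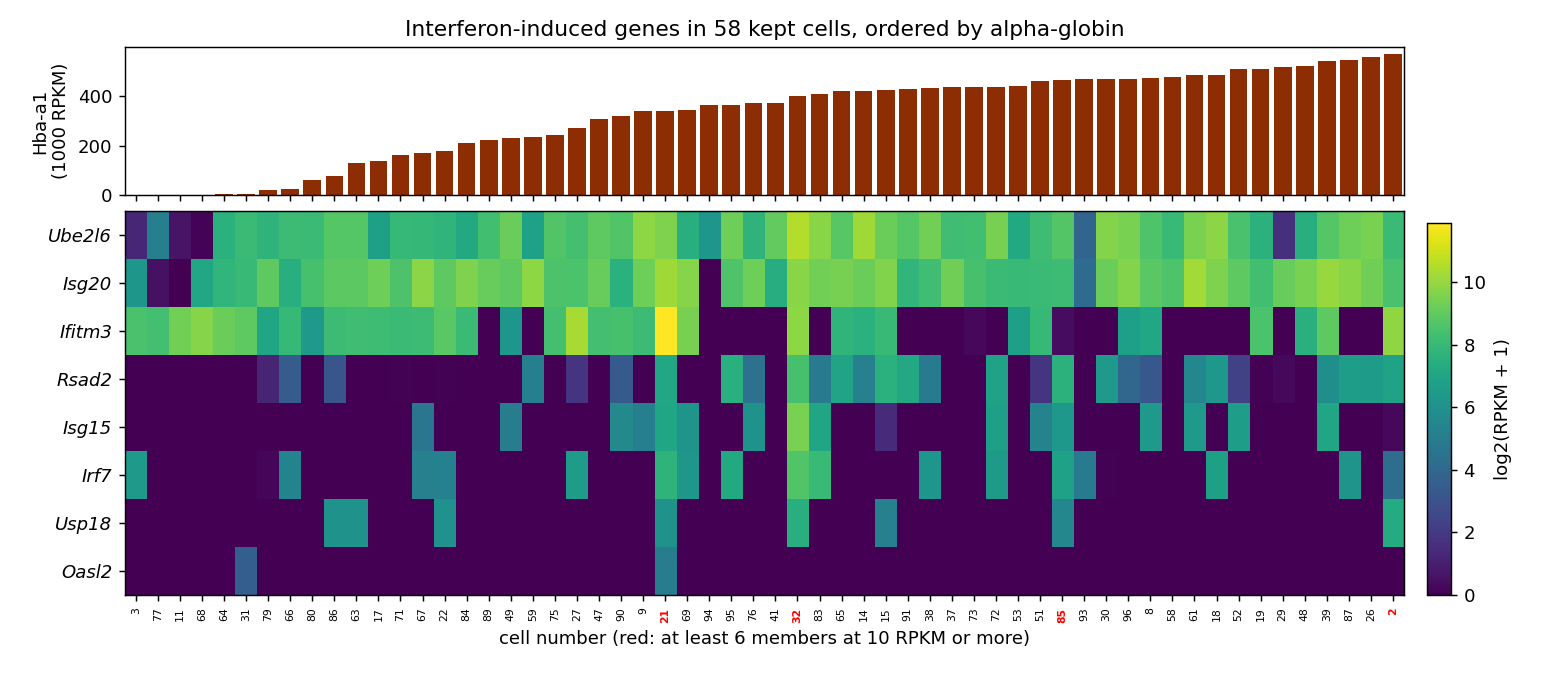
Upper panel, Hba-a1 in units of 1000 RPKM in each of the 58 kept cells, ordered from low to high. Lower panel, log2(RPKM + 1) of the 8 genes in the same cells, with the 4 cells at 10 RPKM or more in at least 6 genes numbered in red; Ube2l6 and Isg20 fill nearly every column, Ifitm3 thins out toward the right, and Rsad2 and Isg15 are mostly in the right-hand columns.

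Every kept cell had at least 1 of the 8 genes, and the median was 4. Exactly 1, 2, 3, 4 and 5 genes were detected in 2, 8, 15, 16 and 12 cells, and 6, 7 and 8 genes in 3, 1 and 1. Since Ube2l6, Isg20 and Ifitm3 account for most of these, the count over the 5 genes with fewer cells, Rsad2, Isg15, Irf7, Usp18 and Oasl2, tells more about single cells. None of the 5 was detected in 20 kept cells (34.5%), 1 in 14 cells, 2 in 17 cells, 3 in 4 cells, 4 in 2 cells (numbers 32 and 85) and all 5 in cell 21. Most cells with any of these transcripts thus had 1 or 2 of them.

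Isg15, Irf7 and Usp18 were detected in a larger share of cells with Rsad2 than of cells without it, though the intervals overlapped, and Oasl2 in 1 cell of each set. Isg15 was detected in 13 of 29 cells with Rsad2 (44.8%, 26.4% to 64.3%) and in 4 of 29 without it (13.8%, 3.89% to 31.7%). Irf7 was detected in 12 of 29 cells with Rsad2 (41.4%, 23.5% to 61.1%) and in 5 of 29 without it (17.2%, 5.85% to 35.8%). Usp18 was found in 6 and 2 cells of these sets, whereas Ifitm3 went the other way, in 15 cells with Rsad2 and 21 without. Cells with Rsad2 listed fewer genes, with a median of 1627 against 2779, and the part of library depth and of globin content was not tested. When kept cells were ordered by alpha-globin and put into groups of 19 high, 20 middle and 19 low cells, 7 of 13 high cells with Rsad2 and 0 of 6 without it had Isg15; the counts were 6 of 12 and 2 of 8 in the middle group and 0 of 4 and 2 of 15 in the low group. Irf7 and Isg15 were found together in 7 cells, against 10 cells with each alone. Cmpk2, the neighbour of Rsad2 and a mitochondrial nucleotide kinase that was looked up for that reason, was detected in 11 of 29 cells with Rsad2 and in 11 of 29 without it.

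**Figure D2:**
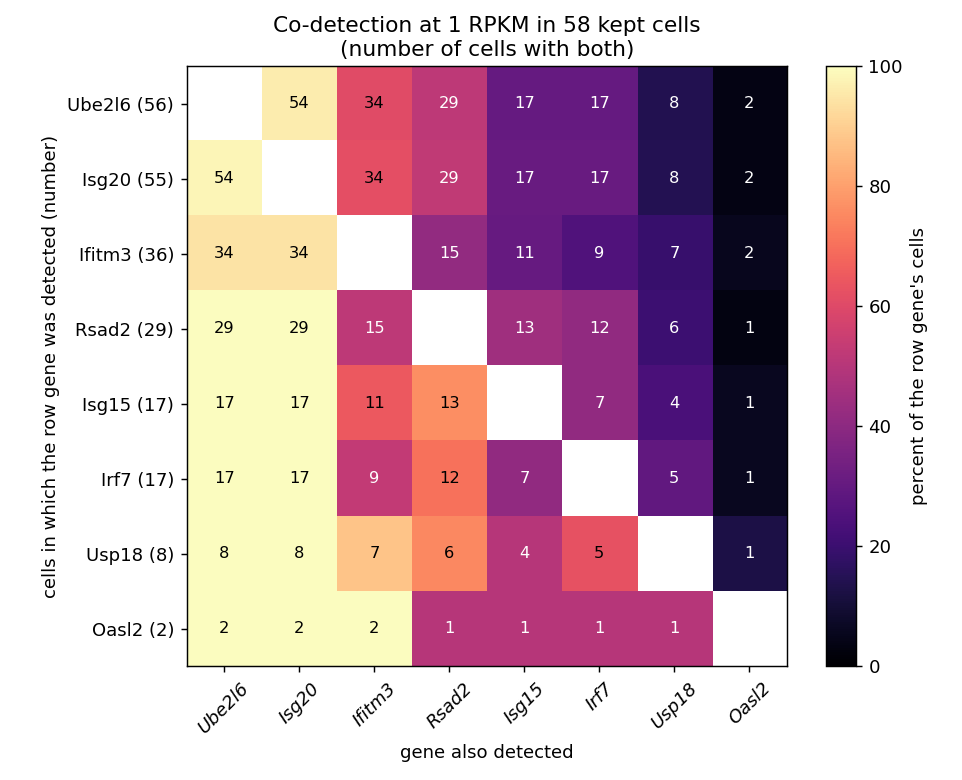
Number of kept cells in which the gene of the row and the gene of the column were both at 1 RPKM or more, coloured by the percentage of the row gene's cells. All 29 cells with Rsad2 also held Ube2l6 and Isg20, and 13 of the 17 cells with Isg15 also held Rsad2.

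A full response was set as at least 6 of the 8 genes at 10 RPKM or more in 1 cell, and 4 of 58 kept cells met it (6.90%, 1.91% to 16.7%). Cell 21 had all 8 genes, with 140 RPKM of Rsad2, 128 RPKM of Isg15, 210 RPKM of Irf7, 67.1 RPKM of Usp18, 32.0 RPKM of Oasl2, 3795 RPKM of Ifitm3, 1175 RPKM of Isg20 and 771 RPKM of Ube2l6. Cell 32 had 7 of them and lacked Oasl2, with 348 RPKM of Rsad2, 719 RPKM of Isg15, 406 RPKM of Irf7 and 179 RPKM of Usp18, each the highest of all kept cells. These 2 cells, 3.45% of the kept cells, held 45.2% of the summed RPKM of Isg15, 36.2% of Usp18, 32.5% of Irf7, 27.5% of Ifitm3 and 21.9% of Rsad2, but 9.52% of Ube2l6 and 7.23% of Isg20. Because the 2 cells were chosen by these same genes, large shares follow in part from the choice. Cell 32 alone held 38.4% of Isg15, and cell 21 alone held 22.0% of Ifitm3.

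The other 2 cells met the rule narrowly. Cell 85 had 6 genes, with 199 RPKM of Rsad2, 80.4 RPKM of Isg15, 110 RPKM of Irf7 and 44.0 RPKM of Usp18, and Ifitm3 at 0.306 RPKM. Cell 2 also had 6, with 114 RPKM of Rsad2, 158 RPKM of Usp18, 977 RPKM of Ifitm3, 18.8 RPKM of Irf7, and Isg15 at 0.183 RPKM. Just outside the rule, 7 cells had 5 genes at 10 RPKM or more, among them cell 15, in which a sixth, Isg15, was at 1.76 RPKM. No cell of another lineage had more than 2 of the 8 genes.

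Among 52 other interferon-induced genes, which had no part in choosing these cells, cell 21 had 24 detected and cell 32 had 20, whereas cell 85 had 5 and cell 2 had 2. The other 54 kept cells had 0 to 26, with a median of 8, and the count went with the number of genes a cell listed: the highest counts outside these cells, 26 in cell 3 and 25 in cell 64, came from cells of 4275 and 5507 genes, against 2409 in cell 21 and 1670 in cell 32. As a share of the genes detected in a cell, the other interferon-induced genes made up 1.20% in cell 32 and 0.996% in cell 21, the highest among the 58 kept cells. That share was 0.415% in cell 85 and 0.199% in cell 2, and in the other 54 cells it ran from 0 to 0.866% with a median of 0.323%. The 52 genes were 0.214% of all listed symbols. Cell 72, with 5 of the 8 genes, had none of the 52. Relative to the genes a cell listed, other interferon-induced transcripts were thus most frequent in cells 21 and 32, while cells 85 and 2 lay inside the range of all others. By number this did not hold. At 10 RPKM or more, cell 21 had 22 of the 52 genes and cell 32 had 12, ranks 3 and 7 among kept cells. Cell 64 had 23, and cell 3, which was among the kept cells poor in alpha-globin, had 24.

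Cells 21 and 32 shared 14 of their other interferon-induced genes, 58.3% of those of cell 21 and 70.0% of those of cell 32. The most abundant in cell 21 were Lgals9, a galectin (633 RPKM), Ifi35 (245 RPKM), Oas1a, a sensor of double-stranded RNA (243 RPKM), and Ifi27, a mitochondrial protein (242 RPKM). In cell 32 these stood at 427, 242, 0 and 166 RPKM. Of signalling genes, Irf9 was at 100 RPKM in cell 21 and 203 RPKM in cell 32, which was the highest of the kept cells. Some classic targets, Ifit1, Ifit2, Ifit3, Mx1, Mx2 and Bst2, were listed at 0 in both. They were rare in all 58 kept cells, with Mx1 and Mx2 in 0, Ifit3 in 1, Ifit1 in 2, Bst2 in 3 and Ifit2 in 4. Their zeros therefore do not set the 2 cells apart. The 2 cells had estimated depths of 7604 and 9154 in units of 1000 reads and 17 of 17 erythroblast markers each; of the markers of other lineages, cell 21 had 1 plasmacytoid dendritic cell marker at 10 RPKM or more and cell 32 had none. Both cells, and cell 2, carried run code SCP-1706080, which holds 27 of the 58 kept cells, and cell 85 carried run code SCP-1706013.

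**Figure D3:**
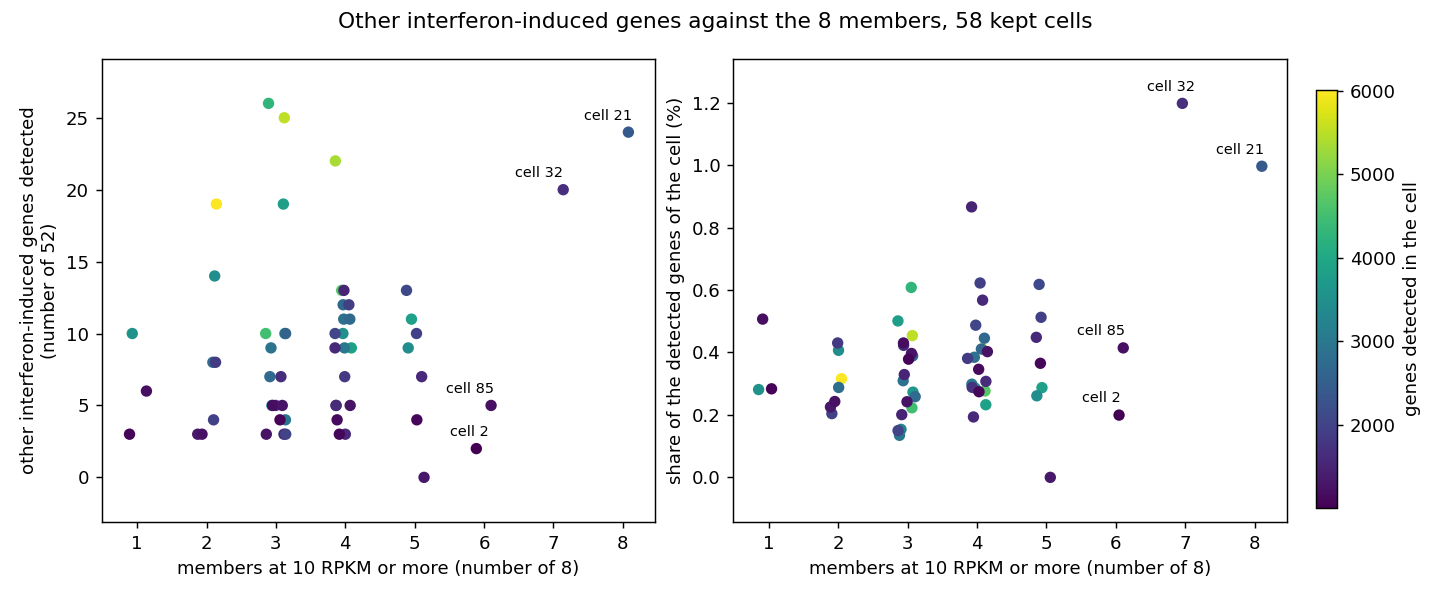
Other interferon-induced genes detected per kept cell, as a number of 52 (left) and as a percentage of the genes detected in that cell (right), against the number of the 8 genes at 10 RPKM or more, with points shifted slightly sideways and coloured by genes detected. Cells 21 and 32 stand highest on the right at 0.996% and 1.20%, while cells 85 and 2 lie among the rest.

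Alpha-globin is produced increasingly as erythroblasts mature, so the 19 kept cells highest in Hba-a1 (the globin-high group) were set against the 19 lowest (the globin-low group). Rsad2 and Isg15 were higher in the globin-high group and Ifitm3 was lower, while Irf7 and Usp18 differed by less than 1 on the log2 scale. Counting differences of at least 1 in mean log2(RPKM + 1), 4 of 7 genes compared were higher and 1 was lower, against 1.49% of 6123 genes higher and 71.2% lower. Rsad2 and Isg15, detected in 4 and 2 globin-low cells, entered the comparison through the globin-high group. The genes were chosen with earlier results of these data known, so these counts describe them and set nothing apart. The median over all genes was -1.72, beside 1.03 for the 7 genes. Measured from that median of all genes, Rsad2 stood at 4.74, Isg15 at 3.59, Ube2l6 at 3.16 and Isg20 at 2.75. Irf7 stood at 2.41, Usp18 at 1.44 and Ifitm3 at -2.26. These positions depend on which genes are compared. With no filter on genes the median of all genes was 0, and Irf7 and Usp18 then stood at 0.69 and -0.28. Globin took 90.6% of summed RPKM in the globin-high group against 35.0% in the globin-low group, the number of genes was 1239 against 3664 at the median, and estimated depth was 7907 against 5777 in units of 1000 reads; their part in these differences was not tested. On this scale, differences of genes with low values are understated.

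Rsad2 ranged from 0 to 199 RPKM with a median of 14.2 RPKM in the globin-high group, and from 0 to 34.1 RPKM with a median of 0 in the globin-low group. It was detected in 13 of 19 cells (68.4%, 43.4% to 87.4%) against 4 of 19 (21.1%, 6.05% to 45.6%), and its mean log2 value was 3.71 ± 2.98 against 0.69 ± 1.504 (SD over 19 cells each), a difference of 3.02. Within run codes SCP-170608, SCP-1706013 and SCP-1706080 the difference was 2.01, 3.67 and 3.62, and without the 4 cells under 1000 RPKM of Hba-a1 it was 2.71. Differences within these codes rest on few cells: 4 globin-high against 8 globin-low, 4 against 5, and 11 against 6, in that order. Isg15 was detected in 7 cells of the globin-high group, up to 128 RPKM, against 2 cells of the globin-low group, up to 32.1 RPKM, and differed by 1.86, with 2.71, 1.59 and 1.48 within those run codes. The values of both genes overlapped between the groups, since each had zeros in both.

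Ifitm3 was detected in 8 of 19 cells of the globin-high group (42.1%, 20.3% to 66.5%), up to 977 RPKM, against 17 of 19 of the globin-low group (89.5%, 66.9% to 98.7%), up to 855 RPKM. Its mean log2 value was 3.36 ± 4.07 against 7.34 ± 2.74, a difference of -3.98, with -5.80, -4.15 and -3.80 within run codes SCP-170608, SCP-1706013 and SCP-1706080. All 4 cells under 1000 RPKM of Hba-a1 held Ifitm3, and the 855 RPKM came from 1 of them, cell 68. Without these cells the difference of Ifitm3 was -3.71. Ifitm2 differed by -4.86 with all kept cells. Where detected, Ifitm3 had medians of 292, 335 and 220 RPKM in the globin-low, middle and globin-high groups, so the groups differed more in how many cells had it than in its level there. Among kept cells with at least 2000 genes, grouped anew by Hba-a1, the difference of Ifitm3 was -0.30. The median over all genes was -1.60 in that setting, so Ifitm3 lay above it there, by 1.30.

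Isg20 (1.03) and Ube2l6 (1.43) passed the size rule, but without the 4 cells under 1000 RPKM of Hba-a1 the differences were -0.047 and -0.055. Their medians were 495 RPKM against 474 RPKM for Isg20 and 392 RPKM against 222 RPKM for Ube2l6 in the globin-high and the globin-low group. Within run codes SCP-170608, SCP-1706013 and SCP-1706080, Isg20 differed by 1.22, -1.06 and 2.12 and Ube2l6 by 2.00, -0.16 and 2.36. Of the 4 cells under 1000 RPKM of Hba-a1, numbers 68 and 77 carried SCP-170608 and numbers 3 and 11 carried SCP-1706080. None carried SCP-1706013, and the part of this split was not tested. With all cells brought to a sum of 1000000, which shifted the median of all genes by -0.27, Isg20 differed by -0.32 and Ube2l6 by 0.13, and with globin genes left out before that scaling by 2.44 and 2.83. With cells grouped anew, Isg20 and Ube2l6 differed by 2.99 and 3.70 at a minimum of 2000 genes and by 4.53 and 4.27 with no gene minimum. Both settings kept the 4 cells under 1000 RPKM of Hba-a1. At a minimum of 2000 genes these cells made up a larger part of the globin-low group, and their part in the difference was not tested. Irf7 was detected in 6 cells of the globin-high group against 4 of the globin-low group and differed by 0.69. Within run codes it differed by 0.30 in SCP-170608, 4.42 in SCP-1706013 (4 against 5 cells) and -0.93 in SCP-1706080 (11 against 6 cells). Usp18 differed by -0.28, with 2 cells against 3, and Oasl2 was in too few cells to compare. Of the 4 cells meeting the full-response rule, 0 were in the globin-low group, 2 in the middle and 2 in the globin-high group.

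The 11 cells of other lineages, which carried the same run codes as kept cells, had few of the 8 genes apart from Ifitm3. Counting differences of at least 1 between kept cells and those 11 cells, 5 of 7 genes were higher and 1 was lower, against 6.94% of 8208 genes higher and 41.9% lower, with a median over all genes of -0.77. Each of the 5 was detected in at most 1 of the 11 cells and so entered the comparison through kept cells. The genes were also chosen with earlier results of these data known, so the count describes them and sets nothing apart. Isg20 had a mean log2 value of 8.32 ± 2.16 in kept cells (SD, 58 cells) and 0.59 ± 1.95 in other-lineage cells (SD, 11 cells), a difference of 7.73. Ube2l6 averaged 7.88 ± 2.24 and 0.23 ± 0.49, a difference of 7.65, and its highest value in the 11 cells was 1.82 RPKM. Isg20 was above 1 RPKM in 1 of the 11 cells, at 87.9 RPKM.

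Rsad2, detected in 29 of 58 kept cells, was detected in 0 of 11 other-lineage cells, with an exact upper limit of 28.5%, and differed by 2.56. Isg15 differed by 1.42, with 17 of 58 against 1 of 11 cells, and Irf7 by 1.10, with 17 of 58 against 1 of 11. The call of Irf7 was lost without run code SCP-1706080 (0.44), without SCP-1706013 (0.86), at a sum of 1000000 per cell (0.79), at a minimum of 2000 genes (0.69) and with no gene minimum (0.52), and its difference was 2.05 without SCP-170608. The call of Isg15 was lost at a minimum of 2000 genes (0.82) and with no gene minimum (0.92), and Rsad2 differed by 1.30 at a minimum of 2000 genes. The single other-lineage cell with Irf7 held 321 RPKM and met the T or NK cell list. Usp18 differed by 0.86, with 8 of 58 against 0 of 11 cells. Ifitm3 was detected in 36 of 58 kept cells (62.1%) and in 9 of 11 other-lineage cells (81.8%, 48.2% to 97.7%), with medians of 296 RPKM and 492 RPKM where detected, and differed by -1.37, or by 0.35 among cells with at least 2000 genes and by -0.63 without run code SCP-1706013. Cells of other lineages had fewer estimated reads and more genes than kept cells, as given above, and the part of depth was not tested.

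**Figure D4:**
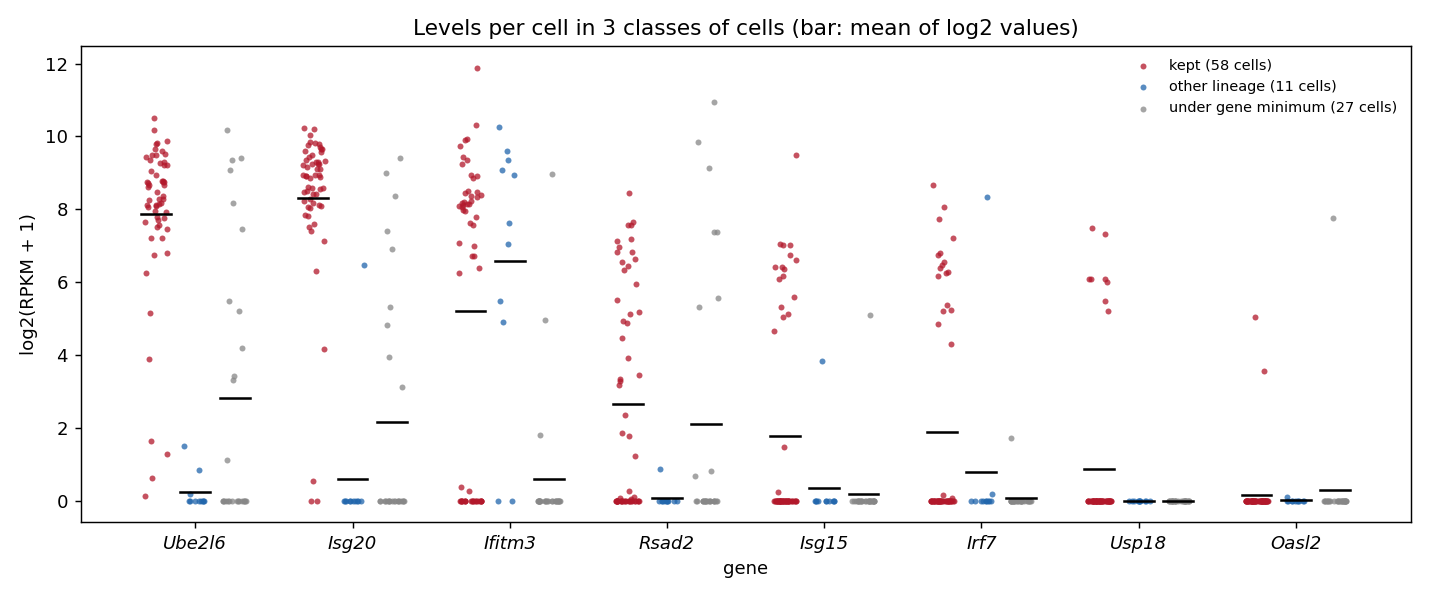
Log2(RPKM + 1) of the 8 genes in each of 58 kept cells (red), 11 cells of other lineages (blue) and 27 cells under the gene minimum (grey), with a bar at the mean of the log2 values. Isg20 and Ube2l6 separate kept cells from cells of other lineages nearly completely, while Ifitm3 is high in both.

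The wider interferon pathway was detected in part. None of 19 measured interferon ligand genes was detected in any kept cell, and 18 were detected in none of the 96. Of 14 receptor and JAK-STAT genes measured, 11 were found in at least 1 kept cell, led by the kinase gene Jak1 (26 cells), Irf9 (25 cells) and the type I receptor chain gene Ifnar2 (23 cells); the other chain, Ifnar1, was found in 8. Among 14 genes of nucleic acid sensing, 10 were found in a kept cell, none in more than 10 cells, the count of Irf3. Of 22 genes induced by interferon-gamma, 15 were found, led by the GTPase genes Tgtp1 and Tgtp2 (18 cells each, near-identical copies that may share reads), Irgm1 and the immunoproteasome subunit gene Psmb9 (13 each).

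Of the 52 other interferon-induced genes, 47 were found in at least 1 kept cell, 4 of them in at least 50%, and the median gene was found in 6.5 cells; over all genes, 45.1% were found in at least 1 kept cell and 6.3% in at least 50%. The 4 were Slfn5 (48 cells), the apoptosis regulator gene Xaf1 (41 cells), Ifi27 (37 cells) and Ifi27l2a (35 cells), and except for Ifi27, with a median of 118 RPKM where detected, they were low, at 6.68 RPKM for Slfn5, 9.19 RPKM for Xaf1 and 7.25 RPKM for Ifi27l2a. Slfn5 and Xaf1 were also found in all 11 cells of other lineages. Low values over many cells were thus seen for Slfn5, Xaf1 and Ifi27l2a, whereas each of the 8 had a median above 10 RPKM where detected. In the ISG15 conjugation system, Ube2l6 was found in 56 kept cells, but the activating enzyme gene Uba7 in 12, the ligase gene Herc6 in 16, the ligase gene Trim25 in 10 and Isg15 itself in 17. Of 8 genes of MHC class I presentation, which nearly all nucleated cells use, 3 were found in at least 50% of kept cells. These were B2m in 54 cells, H2-D1 in 43 and H2-K1 in 33, and the other genes of that list were found in 1 to 28 cells.

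In the globin-high against the globin-low group, none of 23 other interferon-induced genes compared was higher and 15 were lower, with a median difference of -1.41 beside the -1.72 of all genes. Slfn5 differed by -2.94, Xaf1 by -3.20 and Cmpk2 by -1.73. Of receptor and JAK-STAT genes, 6 of 9 were lower and 0 higher, and of MHC class I genes 5 of 7 were lower and 0 higher. These counts lie near the share over all genes compared, 71.2% lower and 1.49% higher, and so are no result about the lists. B2m had a median of 186 RPKM in the globin-high group against 1508 RPKM in the globin-low group. Apart from members of the 8, no gene compared from any of these lists was higher by at least 1.

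**Figure D5:**
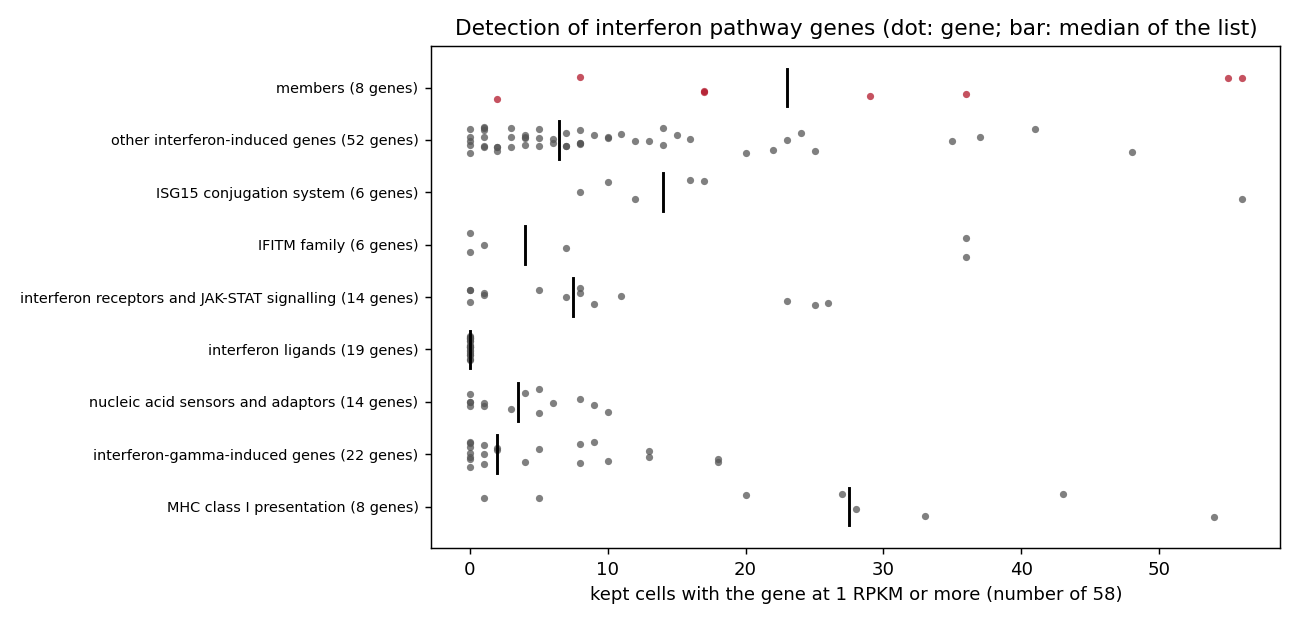
Number of the 58 kept cells in which each gene of a list was at 1 RPKM or more (dots), with the median of the list as a bar; genes in several lists appear in each. The 8 genes, in red, range from 2 to 56 cells, and all 19 ligand genes lie at 0.

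Likeness between genes was ranked by Spearman correlation over the 58 kept cells among 4598 genes found in at least 10 of them, as a description, since the cells share libraries, depth and globin content. Rsad2 was most like Ube2l6 (0.60), Slfn14, a ribosome-associated ribonuclease gene (0.55), and the beta-globin gene Hbb-b2 (0.53). Ube2l6 was most like Alas2, the first enzyme of heme synthesis in red cells (0.70), Rsad2 (0.60) and Ppp1r15a, a phosphatase subunit (0.57), and Isg20 was most like the iron-sulfur assembly gene Isca1 (0.52), Tfdp2 (0.47) and Alas2 (0.45). Isg15 was most like the cell cycle inhibitor gene Cdkn2d (0.44) and the mitotic genes Spag5 (0.43) and Nde1 (0.42), with Rsad2 at rank 6 (0.39). Irf7 was most like Fam220a (0.45), Capn12 (0.44) and Syt6 (0.43), with Rsad2 at rank 7 (0.42). Ifitm3 was most like Ifitm2 (0.91), Eif3k, a translation initiation factor subunit (0.63), and Trp53 (0.62), and it was at -0.18 with Rsad2 and -0.22 with Ube2l6. Apart from the pair of Rsad2 and Ube2l6, and of Ifitm3 and Ifitm2, the nearest genes were not interferon-induced genes of the lists used.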

How the data were processed

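The deposited table holds RPKM values per RefSeq transcript made by the authors; per the submitters' processing notes TopHat2 2.0.9 was run with the build mm9, and no further step is stated in those notes. Per the labels' protocols, cells were captured on a Fluidigm C1 and amplified with SMART-Seq chemistry, with Nextera XT libraries. A gene took its highest transcript's value per cell. Other-lineage cells had at least 3 and at least 50% of a list's measured markers at 10 RPKM or more. Reads per cell were estimated from steps between low values, since RPKM keeps no depth, with transcript lengths for 97.6% of transcripts. In simulated data 57 of 58 cells came within 5%. The simulation used the same lengths as the estimate, so it could not show an error that comes from lengths differing from the authors' own. Whether 1 unit was a single read or a pair could not be told. Differences are of mean log2(RPKM + 1) for genes detected in at least 5 of the cells compared, called at 1 by size. Intervals are Clopper-Pearson at 95%. No doublet caller was run on 96 cells. Python 3.11.15, pandas 2.3.3, numpy 2.4.6 and scipy 1.17.1 were used. Alternatives were other detection levels, gene minimums, scalings, pseudocounts, filters, transcript sums, left-out run codes and leaving out the 4 kept cells poor in alpha-globin. The genes and lists were chosen with earlier results of these data known. Named genes were the 8, up to 4 of each list in the most kept cells, up to 4 highest in cell 21, and the 3 most like each gene; Cmpk2, Phrf1, Kit, Gata2, Cd34, Myb, Ifnar1, Bst2 and the Ifit and Mx genes were named after their values were seen. Sequences are from RefSeq (GRCm38.p6). Run codes are from the sample descriptions, while the titles give all cells the same code. What the codes mark is not stated in the sources used. A gene that the naming rule covers is not reported here.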

Additional observations from a re-analysis of the deposited data

Results flagged for a closer look

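The 27 cells left out for listing fewer than 1000 genes were in no comparison, yet 6 of the 8 genes were at 10 RPKM or more in some of them, well above the floor of counting in kept cells. Rsad2 was at 10 RPKM or more in 7 of the 27 cells, Ube2l6 in 9, Isg20 in 8, Ifitm3 in 2, Isg15 in 1 and Oasl2 in 1. Rsad2 ran from 38.7 to 1983 RPKM in its 7 cells, and its highest value, in cell 13, came from a library with 92 genes detected and exceeds the 348 RPKM of the highest kept cell. Hba-a1 had a median of 471780 RPKM in the 7 cells with Rsad2 and 143746 RPKM in the other 20. Oasl2 reached 215 RPKM in cell 55, against 32.0 RPKM at most among kept cells. Values from so few genes are shares of a narrow library, and no depth was estimated for these cells.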

How the results depend on the processing

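No paired analysis was possible because all cells carry 1 group label. Of the alternatives, 79 values that answer a comparison stayed close and 11 moved. Counts were called close by a limit on their ratio, and genes per cell by the SD over cells. Other detection levels and filters cannot change the difference of a gene already compared, so part of the 79 had little room to move. With a gene minimum of 2000 the full-response rule was met by 1 cell, no gene was lower between globin groups (0), and 3 genes were higher and 0 lower against other lineages, where Ifitm3 turned to 0.35. With no gene minimum, 2 genes were broadly detected and 3 were higher against other lineages. Rescaling every cell to a total of 1000000 left 2 genes higher between globin groups and turned Isg20 to -0.32, and shifted the median of all genes by -0.27 between globin groups and -0.35 between lineages. Leaving out run code SCP-170608 left 1 gene higher between globin groups, leaving out SCP-1706013 left 0 lower against other lineages, and leaving out SCP-1706080 left 1 cell with a full response. Without SCP-170608, without SCP-1706080 and at a minimum of 2000 genes, Isg15 was in too few cells to be compared between globin groups. Without the 4 cells under 1000 RPKM of Hba-a1, an alternative chosen after seeing the data, 2 genes were higher between globin groups, with Isg20 at -0.047 and Ube2l6 at -0.055. The causes were not tested beyond the fewer cells each setting leaves. Between globin groups, Rsad2 ran from 2.15 to 4.65, Isg15 from 1.26 to 2.80 and Ifitm3 from -6.73 to -0.30 over all alternatives that gave a value. RPKM from 1 sample of cells, without molecular identifiers, limits all results to these libraries.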
